A study of Medicago truncatula with 4 samples.

Results

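The set comprises 49 genes of *Medicago truncatula* that make, inactivate, perceive or answer to gibberellin (GA), abscisic acid (ABA), ethylene, strigolactone, brassinosteroid or jasmonate. They were chosen by these hormone names in the deposited gene descriptions, and rows that name an insensitive mutant, a response factor, or a GASA, ERF or GRAS acronym were left out. The descriptions cover 3784 of the 52709 genes in the files, so the 49 are only those that the annotation names. By the first hormone matched, 23 belong to gibberellin, 10 to ethylene, 9 to strigolactone and carotenoid cleavage, 4 to jasmonate, 2 to abscisic acid and 1 to brassinosteroid. The rule itself uses no measured value, though it was set with earlier results of these data known.

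The libraries came from calli of the R108 line on day 35 of culture, 2 from plants that carry the *MtWOX9-1* coding sequence from a pMDC32 plasmid and 2 from wildtype plants. The pMDC32 vector drives its insert from a constitutive 35S promoter, and the labels do not say how many independent transgenic lines were used. Leaf pieces from plants aged 35 days were kept for 30 days with the synthetic auxin 2,4-D at 18 μM and the cytokinin BAP at 2.22 μM. All calli then spent 5 days without hormones, so no gibberellin, ethylene or abscisic acid was supplied in any group.

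Gibberellins are diterpenes. Ent-kaurene synthase and ent-kaurene oxidase act early in the pathway, GA 20-oxidases and GA 3-oxidases complete the active hormone, and GA 2-oxidases inactivate it or its precursors. The GID1 receptor binds active GA and leads to the breakdown of DELLA proteins, which restrain growth. Ethylene is made from ACC, the product of ACC synthase, and its ETR receptors hold the response back until they bind the gas, after which EIN2 and EIN3 transmit the signal. Strigolactones are made from carotenoids by D27, CCD7, CCD8 and MAX1 and are perceived by D14 together with the F-box protein MAX2. Abscisic acid is also carotenoid-derived and acts in seed maturation through factors such as ABI3, ABI4 and ABI5. Auxin, cytokinin, ABA and GA are the hormones most often discussed in somatic embryogenesis.

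The 2 *MtWOX9-1*-overexpressing libraries held 6666866 and 6399209 counts and the 2 wildtype libraries 6065277 and 5241334. Taking 3 counts as the limit, a gene at 0 counts may have a level of up to 0.450 to 0.572 CPM (counts in each 1000000 counts of the library), which covers counting error only. *MtWOX9-1* had 7692 and 7634 counts in overexpressing calli, against 2 and 18 counts in wildtype calli, which follows the labels. Normalized counts below are counts scaled by edgeR's TMM method to a common library size. Every adjusted p comes from the two-sided quasi-likelihood test of edgeR and was adjusted by the method of Benjamini and Hochberg over the 24630 genes that had at least 10 counts in total. Permuting 2 libraries against 2 cannot give a p below 0.333, so these p-values rest on a spread that is shared across genes. The labels call the replicates biological but do not say that they are separate cultures or lines, and the p-values measure only the spread between these libraries. Genes taken here as markers of the embryo and root cap moved with the genotype. The 5 plethora genes summed to between 3022 and 3727 normalized counts in overexpressing calli and between 72.1 and 367 in wildtype calli, with the higher wildtype value in replicate 2, and the 10 root cap genes to between 8967 and 13682 and between 32.3 and 189. All 15 of these genes and *MtABI3* were called higher, although *MtPLT1* and *MtPLT4* were not without overexpressing replicate 1 (adjusted p = 0.084 and 0.057), *MtPLT1* and *AtFEZ-like* not without overexpressing replicate 2 (0.057 and 0.050), and *MtPLT1* and *MtFEZ* not by DESeq2 (0.28 and 0.063). Over all genes tested, 20.2% were called higher. *MtWOX2* and *LEC1* were also planned as embryo markers, but the search of the acronyms found neither. Other markers did not rise as a list. *MtWOX4*, a gene of vascular cambium in Arabidopsis, fell 24.2-fold, with 8.81 and 34.4 normalized counts in overexpressing calli and 528 and 520 in wildtype calli (log2 fold change -4.60, and -5.88 without overexpressing replicate 2 or -3.92 without replicate 1). The 3 genes of the seed storage and late embryogenesis list summed to 54.6 and 101.4 in overexpressing calli and 284 and 238 in wildtype calli, where *MtLEA* fell 9.09-fold (log2 fold change -3.18, and -4.03 without overexpressing replicate 2) and *MtPM25* and *MtLEA4-5* rose. *MtABI3* had 0 counts in wildtype replicate 1, and the part of such cells in the values below was not tested. In bulk RNA, fewer cells of a type and less RNA per cell cannot be told apart. A search of the descriptions for chlorophyll a/b and ribulose bisphosphate carboxylase small subunit genes, as leaf markers, found no gene. Markers of callus as such were not searched for, so the tissue label was not checked against either.

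Most of the hormone genes that changed were lower in *MtWOX9-1*-overexpressing calli, and gibberellin genes had the greatest differences. Of the 49 genes, 11 had 0 counts in every library, 8 had between 1 and 6 counts in total, and 30 were tested. Of these 30, 5 rose and 14 fell, or 16.7% and 46.7%, where 20.2% of all genes tested rose and 18.9% fell. In either direction 19 were called, or 63.3%, against 39.2% of all genes tested. The median log2 fold change, overexpressing over wildtype, was -0.60 over the 30 genes and 0.04 over all genes tested. The groups did not overlap for 27 of the 30, and for 75.1% of all genes tested. These counts are a description of the genes that passed the filter. For 8 of the 30, 1 group had under 10 counts, so they entered the test mainly through the group where they are high. *MtGA20ox1* and *MtGA20ox6* are among these 8, so the filter and their calls, given below, draw on the same counts. The counts also depend on single libraries, with 3, 2 and 3 genes higher when wildtype replicate 1, overexpressing replicate 1 or overexpressing replicate 2 was left out and 8 and 7 lower without wildtype replicate 1 or overexpressing replicate 1. DESeq2 called 2 higher and 11 lower. Of the 19 genes called, 7 were called in every alternative tried, the stricter thresholds included, namely *MtGA20ox1*, *MtGA20ox6*, *MtGA2ox1*, *MtGA2ox2*, *MtGA2ox3*, *MtGA2ox4* and *MtACS2*.

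**Figure D1:**
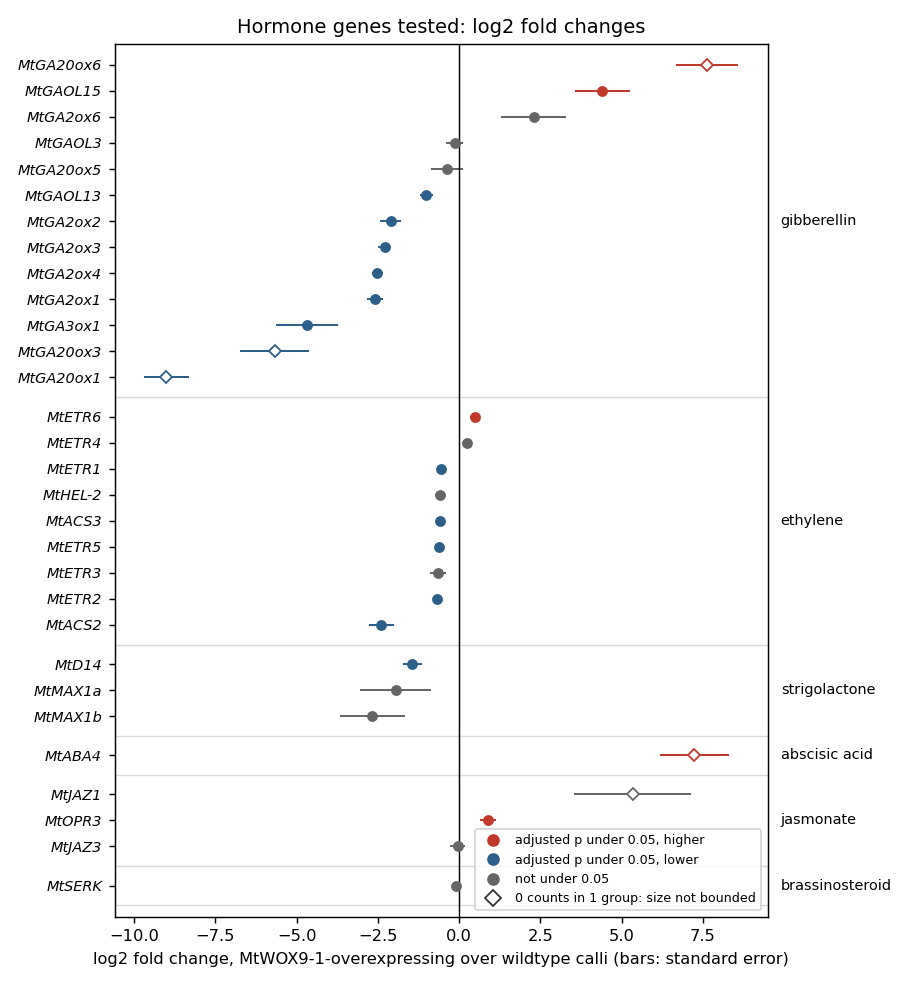
Log2 fold changes of the 30 hormone genes tested, overexpressing over wildtype calli, with standard errors as bars and 1 row per gene by hormone. The gibberellin genes run from -9.00 to 7.62, while the 6 ethylene receptors lie between -0.68 and 0.48; open diamonds mark genes with 0 counts in 1 group, whose size is not bounded by the fit.

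The GA 20-oxidases differed between the calli in which gene was counted. *MtGA20ox1* (MtrunA17Chr6g0474391, on chromosome 6 by its ID) had 0 counts in both overexpressing libraries, against 50 and 62 counts in the wildtype libraries. It was at least 24.0-fold lower in overexpressing calli, taking 3 counts per library as the limit (adjusted p = 0.0041). *MtGA20ox6* (MtrunA17Chr8g0351101, chromosome 8) showed the opposite, with 34 and 21 counts in overexpressing calli, against 0 in both wildtype libraries. It was at least 7.16-fold higher (adjusted p = 0.0095), at a level of 24.5 ± 7.7 normalized counts (SD, n = 2). *MtGA20ox5* was counted in every library, with 18 and 17 counts in overexpressing calli and 11 and 24 in wildtype calli, and the groups overlapped (log2 fold change -0.37, standard error 0.49, adjusted p = 0.59).

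The remaining GA 20-oxidases were near or at 0. *MtGA20ox3*, whose other name *MtMSD1* records the dwarf main stem of its mutant, had 0 counts in both overexpressing libraries and 5 and 6 in the wildtype libraries. It was called lower (adjusted p = 0.023, at least 2.35-fold), but not by DESeq2 (adjusted p = 0.17). The call was also lost without overexpressing replicate 1 (0.060) or replicate 2 (0.052), and without either wildtype replicate the gene had too few counts for the test. *MtGA20ox2* and *MtGA20ox4* had 0 counts in all 4 libraries. Summed over the 6 genes, the 20-oxidases reached 45.8 and 34.4 normalized counts in overexpressing calli and 71.1 and 111 in wildtype calli. The sum, which was chosen after its values were seen and has no test of its own, thus differed less than its largest members did.

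Shares of the family's counts show the change of gene without any scaling between libraries. *MtGA20ox6* took 65.4% of the 20-oxidase counts in overexpressing replicate 1 (exact 95% interval 50.9 to 78.0) and 55.3% in replicate 2 (38.3 to 71.4), against 0% in both wildtype libraries (upper bounds 5.44 and 3.93). *MtGA20ox1* took 0% in both overexpressing libraries (upper bounds 6.85 and 9.25), against 75.8% (63.6 to 85.5) and 67.4% (56.8 to 76.8) in the wildtype libraries. These intervals cover counting error only, and gene length was not taken into account.

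**Figure D2:**
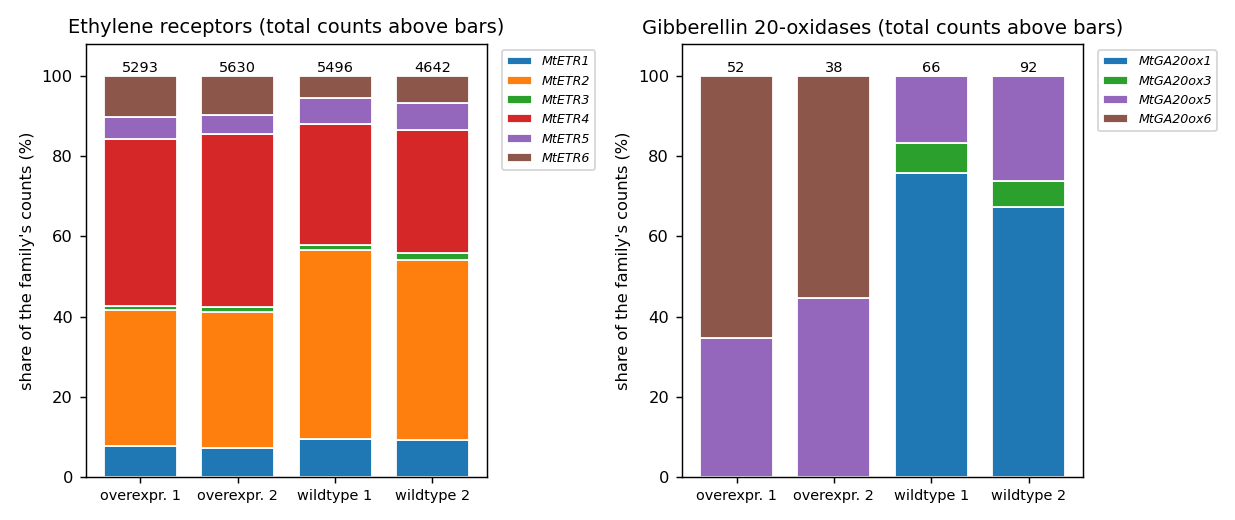
Share of a family's counts held by each gene in each of the 4 libraries, in percent, for the ethylene receptors (left) and the GA 20-oxidases (right), with the family's total counts above each bar. *MtGA20ox6* appears only in the overexpressing libraries and *MtGA20ox1* only in the wildtype libraries, and *MtETR4* and *MtETR6* take larger shares in overexpressing calli.

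The GA 3-oxidases, which catalyse the last step to active GA, were nearly absent from overexpressing calli. *MtGA3ox1* (MtrunA17Chr2g0332191, chromosome 2), also named *MtSSL* after the small and serrated leaves of its mutant, had 0 and 5 counts there, against 32 and 72 in wildtype calli. It was lower by a log2 fold change of -4.67 with a standard error of 0.96 (adjusted p = 0.019). Its size rests on few reads, and it was -8.86 without overexpressing replicate 2, -3.87 without wildtype replicate 2 and -3.69 without overexpressing replicate 1, where the adjusted p was 0.055. *MtGA3ox2* had 0 counts in both overexpressing libraries and 3 and 2 in the wildtype libraries, too few for a test.

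The GA 2-oxidases, the inactivating enzymes, were lower as well in overexpressing calli, where 4 of the 10 genes fell and were called in every alternative tried. *MtGA2ox1* (MtrunA17Chr2g0313111, chromosome 2), the most counted of the 23 gibberellin genes of the set, had 134 and 178 counts in overexpressing calli, against 909 and 592 in wildtype calli. It averaged 140 ± 30.5 normalized counts in overexpressing calli and 846 ± 188 in wildtype calli (SD, n = 2 each), and was 6.06-fold lower (log2 fold change -2.60, standard error 0.24, adjusted p = 0.0035). The spread within each group was large, yet the higher overexpressing library lay far below the lower wildtype library.

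*MtGA2ox4* (MtrunA17Chr2g0285931), which the files also call *MtGA2OX2*, had 32 and 35 counts in overexpressing calli, against 154 and 149 in wildtype calli. It fell 5.75-fold (log2 fold change -2.52, standard error 0.16, adjusted p = 0.0026). *MtGA2ox3* had 36 and 48 counts in overexpressing calli and 179 and 146 in wildtype calli, a 4.90-fold lower level (adjusted p = 0.0032). *MtGA2ox2* had 13 and 8 counts in overexpressing calli and 39 and 33 in wildtype calli, a 4.32-fold lower level (adjusted p = 0.0090). These 4 genes lie on chromosomes 2, 4 and 8 by their IDs, and their log2 fold changes fell within a narrow span of -2.60 to -2.11. With each library left out in turn, all 4 stayed called.

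One 2-oxidase gene had its higher values in overexpressing calli. *MtGA2ox6* had 25 and 33 counts there, against 0 and 9 in wildtype calli, and was not called (log2 fold change 2.29, standard error 1.00, adjusted p = 0.13). Without wildtype replicate 2, which also had the higher plethora level of the wildtype libraries, the log2 fold change was 7.78 and the adjusted p 0.0077. *MtGA2ox7* had 3 and 0 counts in overexpressing calli and 0 in wildtype calli, and *MtGA2ox10* had 0 in overexpressing calli and 6 and 0 in wildtype calli. *MtGA2ox8*, *MtGA2ox11* and *MtGA2ox12* had 0 counts in all 4 libraries. Summed over the 10 genes, the 2-oxidases reached 214 and 273 normalized counts in overexpressing calli and 1386 and 1118 in wildtype calli, 5.14-fold lower in overexpressing calli on the means. Without *MtGA2ox1* the other 9 genes summed to 96.0 and 112 in overexpressing calli and 407 and 406 in wildtype calli, so the difference did not rest on that gene.

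**Figure D3:**
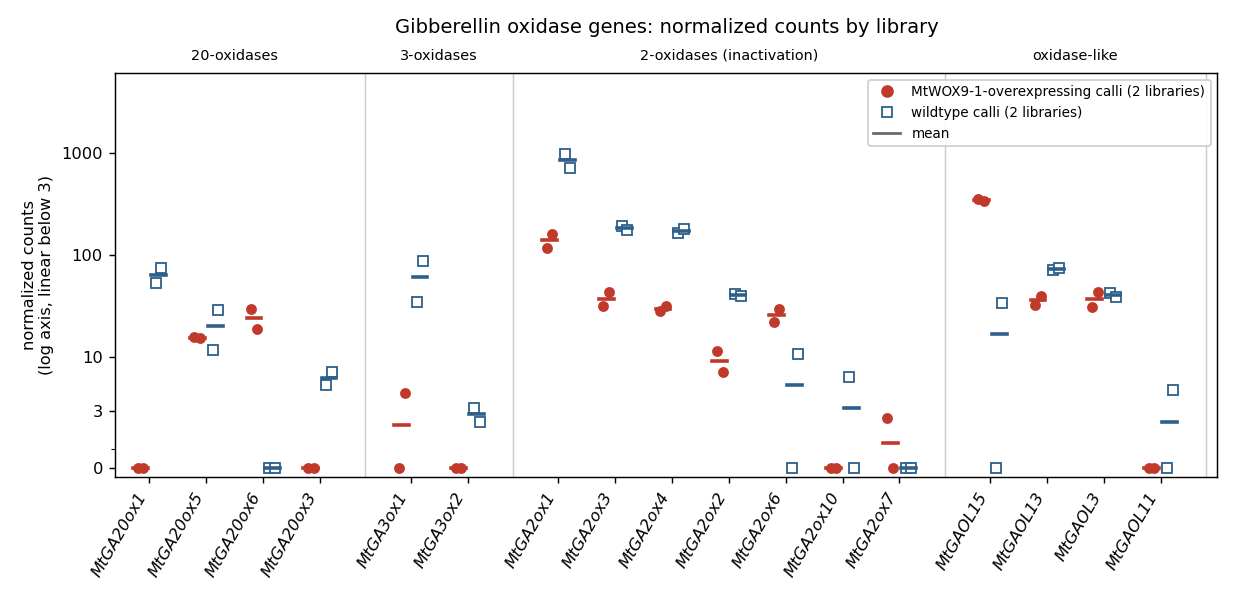
Normalized counts of the 17 gibberellin oxidase genes with any counts, on a log axis that is linear below 3, with filled circles for the 2 overexpressing libraries, open squares for the 2 wildtype libraries and a line at each mean. The circles lie under the squares for *MtGA20ox1*, *MtGA3ox1* and *MtGA2ox1* to *MtGA2ox4*, and above them for *MtGA20ox6*, *MtGA2ox6* and *MtGAOL15*.

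The annotation also names 5 GA-oxidase-like genes, whose activity it does not give. *MtGAOL15* (MtrunA17Chr3g0105281, chromosome 3), described as like a GA 2-oxidase, had 396 and 376 counts in overexpressing calli, against 0 and 28 in wildtype calli. Among the 23 gibberellin genes of the set it was thus the most counted in the overexpressing libraries. It rose 21.2-fold (log2 fold change 4.41, standard error 0.84, adjusted p = 0.016). The size depends on wildtype replicate 2, with a log2 fold change of 11.51 without it and 3.35 without wildtype replicate 1. The call was lost with DESeq2 (adjusted p = 0.21), and without overexpressing replicate 1 (0.060) or 2 (0.051).

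*MtGAOL13* fell 2.02-fold, with 37 and 44 counts in overexpressing calli against 67 and 62 in wildtype calli (adjusted p = 0.016, 0.063 without overexpressing replicate 1, 0.052 without wildtype replicate 1, and 0.13 with DESeq2). *MtGAOL3* had 35 and 48 counts in overexpressing calli and 40 and 32 in wildtype calli, which overlap, and its sign turned with library size as the only scaling. *MtGAOL1* had 0 counts throughout, and *MtGAOL11* had 0 in overexpressing calli and 0 and 4 in wildtype calli.

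Other genes of the gibberellin pathway, listed by name and not by how they moved, were 3 ent-kaurene enzymes, the receptor *MtGID1B* and 3 DELLA genes. *MtGID1B* came in through the word dwarf in its description, and no list searched for GA receptors as such. Of these 7 genes, 2 rose, 2 fell and 3 did not pass the test, where 20.2% of all genes tested rose and 18.9% fell. *MtGID1B* (MtrunA17Chr1g0196311) had 1354 and 1376 counts in overexpressing calli, against 4045 and 3415 in wildtype calli. It averaged 1219 ± 37.5 normalized counts in overexpressing calli and 4233 ± 173 in wildtype calli (SD, n = 2 each), a 3.47-fold lower level (adjusted p = 0.0026). *MtKO*, the ent-kaurene oxidase, fell 2.65-fold, to 166 ± 11.4 normalized counts in overexpressing calli, against 440 ± 32.9 in wildtype calli (adjusted p = 0.0035). *MtKS1* had 38 and 17 counts in overexpressing calli and 8 and 0 in wildtype calli, and *MtKS2* had 16 and 0 in overexpressing calli and 0 in wildtype calli. Neither passed the test (adjusted p = 0.12 and 0.20), though *MtKS1* did without wildtype replicate 1 (0.025) and *MtKS2* without overexpressing replicate 2 (0.043).

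The DELLA repressors did not move together. *MtDELLA1* rose, with 409 and 346 counts in overexpressing calli against 161 and 166 in wildtype calli (log2 fold change 0.85, standard error 0.14, adjusted p = 0.012). *MtDELLA3* had 89 and 30 counts in overexpressing calli and 11 and 9 in wildtype calli (log2 fold change 2.21, adjusted p = 0.045). Its log2 fold change was 1.25 without overexpressing replicate 1 (adjusted p = 0.098), and the call was also lost without wildtype replicate 1 (0.11) or 2 (0.099). *MtDELLA2*, the most counted of the 3, had 736 and 547 counts in overexpressing calli and 691 and 643 in wildtype calli (log2 fold change -0.41, adjusted p = 0.11). Of the 26 GASA peptide genes, a family whose name stands for Gibberellic Acid-Stimulated in Arabidopsis, 13 were tested, and 5 rose and 5 fell. Over all genes tested, 20.2% rose and 18.9% fell. DESeq2 called 4 of the GASA genes higher and 5 lower. Some calls were lost in other fits, *MtGASA11* with the replicate block and *MtGASA21* with DESeq2 among them.

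All 6 ethylene receptor genes were counted in every library, and their changes were small beside those of the gibberellin genes. *MtETR2* (MtrunA17Chr7g0269631, chromosome 7) had 1791 and 1910 counts in overexpressing calli, against 2582 and 2086 in wildtype calli. It averaged 1653 ± 107 normalized counts in overexpressing calli and 2645 ± 190 in wildtype calli (SD, n = 2 each), 1.60-fold lower (log2 fold change -0.68, standard error 0.13, adjusted p = 0.017). *MtETR5* fell 1.54-fold, with 248 ± 16.7 normalized counts in overexpressing calli and 382 ± 17.4 in wildtype calli (adjusted p = 0.016). *MtETR1* fell 1.48-fold, with 363 ± 0.54 normalized counts in overexpressing calli and 536 ± 36.6 in wildtype calli (adjusted p = 0.019).

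*MtETR6* was the 1 receptor gene that rose, by 1.39-fold, with 537 and 552 counts in overexpressing calli against 298 and 315 in wildtype calli (adjusted p = 0.044). *MtETR4* had 2202 and 2431 counts in overexpressing calli, against 1653 and 1424 in wildtype calli, and did not pass the test (log2 fold change 0.24, standard error 0.13, adjusted p = 0.20). *MtETR3*, the least counted, had 55 and 75 counts in overexpressing calli and 75 and 86 in wildtype calli (log2 fold change -0.66, standard error 0.25, adjusted p = 0.092). Each of the 4 calls was lost with some libraries left out. Without wildtype replicate 1 the adjusted p was 0.084 for *MtETR1*, 0.058 for *MtETR2*, 0.066 for *MtETR5* and 0.19 for *MtETR6*. Without overexpressing replicate 1 it was 0.069 for *MtETR1*, 0.079 for *MtETR2* and 0.096 for *MtETR6*, and without overexpressing replicate 2 it was 0.068 for *MtETR1*, 0.064 for *MtETR5* and 0.14 for *MtETR6*. DESeq2 called *MtETR1*, *MtETR2* and *MtETR5*, and gave 0.078 for *MtETR6*.

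Within a library, the order of the 2 most counted receptor genes was turned round between the calli. *MtETR2* had 0.813 and 0.786 counts for each count of *MtETR4* in overexpressing replicates 1 and 2, against 1.56 and 1.46 in the wildtype replicates. This ratio does not depend on the scaling of libraries, though gene length is not taken into account. *MtETR4* took 41.6% (exact 95% interval 40.3 to 42.9) and 43.2% (41.9 to 44.5) of the receptor counts in overexpressing calli, against 30.1% (28.9 to 31.3) and 30.7% (29.4 to 32.0) in wildtype calli. *MtETR2* took 33.8% and 33.9% in overexpressing calli, against 47.0% and 44.9% in wildtype calli. *MtETR6* took 10.1% and 9.80% in overexpressing calli, against 5.42% and 6.79% in wildtype calli. The ratio of *MtETR5* to *MtETR2*, in contrast, was 0.165 and 0.137 in overexpressing calli and 0.142 and 0.147 in wildtype calli, which overlap. The 6 genes together summed to 4661 and 5096 normalized counts in overexpressing calli and 5917 and 5587 in wildtype calli. By library total alone the sums were 794 and 880 CPM in overexpressing calli and 906 and 886 in wildtype calli, so the groups lay closer together with that scaling.

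The ACC synthases, which make the precursor of ethylene, were lower in overexpressing calli. *MtACS2* (MtrunA17Chr4g0054371, chromosome 4) had 11 and 15 counts there, against 43 and 64 in wildtype calli, and was 5.24-fold lower (log2 fold change -2.39, standard error 0.38, adjusted p = 0.0097). *MtACS3* had 345 and 327 counts in overexpressing calli, against 396 and 395 in wildtype calli, and was 1.50-fold lower in normalized counts (adjusted p = 0.018). That call was lost without wildtype replicate 2 (0.067), overexpressing replicate 1 (0.062) or overexpressing replicate 2 (0.069). *MtACS1* had 0 and 2 counts in overexpressing calli and 0 in wildtype calli. *MtHEL-2*, a hevein-like protein gene that the description ties to the ethylene pathway, had 180 ± 33.8 normalized counts in overexpressing calli and 269 ± 21.4 in wildtype calli (adjusted p = 0.052, but called with filterByExpr and, at 0.039, without overexpressing replicate 2).

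Downstream of the receptors, 6 ethylene genes from the fixed lists were tested and 1 of them, *MtEIN3l*, was called, where 39.2% of all genes tested were. *MtEIN3l* had 515 and 521 counts in overexpressing calli, against 570 and 537 in wildtype calli (log2 fold change -0.45, adjusted p = 0.030), and the call was lost with DESeq2 and with any of the 4 libraries left out (0.084 to 0.11). *MtEIN2*, known as *SICKLE* for its ethylene-insensitive mutant, had 1242 and 1224 counts in overexpressing calli and 1260 and 1083 in wildtype calli (log2 fold change -0.27, standard error 0.11, adjusted p = 0.12). *MtEIN3* had 2659 and 2657 counts in overexpressing calli and 2721 and 2045 in wildtype calli (adjusted p = 0.35). The F-box genes *MtEBF1* and *AtEBF1-like*, whose Arabidopsis counterpart removes EIN3, had log2 fold changes of 0.44 and -0.25 (adjusted p = 0.088 and 0.16, where DESeq2 called the first at 0.041), and *MtERF1* one of -0.88 (adjusted p = 0.098).

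Most genes of strigolactone synthesis had no counts. *MtD27*, *MtCCD7*, *MtCCD8*, *MtCCD8b* and *MtCCD8-2* were at 0 in all 4 libraries. No gene named for the CCD7 or CCD8 step was thus detected at this depth in either kind of callus. *MtD27L*, described as D27-like, had 0 counts in overexpressing calli and 5 and 0 in wildtype calli. *MtMAX1b*, a cytochrome P450 of the later steps, had 0 and 12 counts in overexpressing calli, against 39 and 23 in wildtype calli (log2 fold change -2.67, standard error 1.01, adjusted p = 0.095). *MtMAX1a* had 0 and 5 counts in overexpressing calli and 9 and 7 in wildtype calli (log2 fold change -1.96, adjusted p = 0.21). Overexpressing replicate 2 held all the *MAX1* counts of its group, and without it the adjusted p was 0.019 for *MtMAX1b* (log2 fold change -8.08) and 0.037 for *MtMAX1a* (-6.15). Without overexpressing replicate 1 the log2 fold changes were -1.67 and -0.98.

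Genes of strigolactone perception were counted and in part lower. *MtD14* (MtrunA17Chr1g0152551, chromosome 1), which encodes the receptor that also cleaves the hormone, had 12 and 15 counts in overexpressing calli, against 31 and 27 in wildtype calli. It was 2.71-fold lower (log2 fold change -1.44, standard error 0.29, adjusted p = 0.018), and the call was lost with DESeq2 (0.16) and without wildtype replicate 1 (0.062) or overexpressing replicate 1 (0.074). Of 4 further genes from the fixed lists, 2 fell, where 18.9% of all genes tested fell. *MtMAX2a* had 293 and 268 counts in overexpressing calli, against 553 and 552 in wildtype calli, and was 2.51-fold lower (adjusted p = 0.0035), while its copy *MtMAX2b* had 334 and 340 in overexpressing calli and 310 and 298 in wildtype calli (log2 fold change -0.20, adjusted p = 0.22). *MtD14La* had 41 and 38 counts in overexpressing calli, against 85 and 83 in wildtype calli, and was 2.71-fold lower (adjusted p = 0.0054), while *MtD14Lb* had 17 and 21 in overexpressing calli and 9 and 15 in wildtype calli (adjusted p = 0.61). In Arabidopsis and rice, D14-LIKE proteins perceive karrikins rather than strigolactones.

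**Figure D4:**
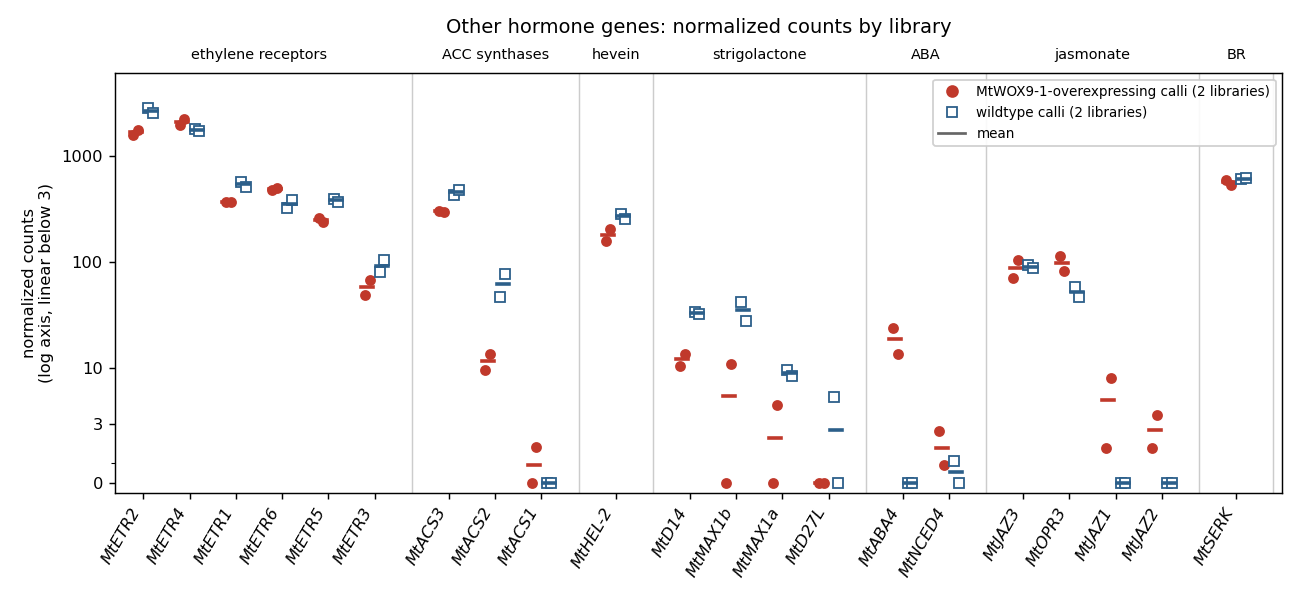
Normalized counts of the hormone genes outside the gibberellin class with any counts, on a log axis that is linear below 3, with filled circles for the 2 overexpressing libraries, open squares for the 2 wildtype libraries and a line at each mean. The 6 ethylene receptors lie between 48.4 and 2780 with small gaps between groups, and *MtABA4*, *MtACS1*, *MtJAZ1* and *MtJAZ2* have both squares at 0.

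Of the 2 abscisic acid genes, 1 was tested. *MtABA4* (MtrunA17Chr6g0460091, chromosome 6), whose Arabidopsis counterpart acts in the synthesis of neoxanthin, an ABA precursor, had 27 and 15 counts in overexpressing calli, against 0 in both wildtype libraries. It was at least 5.46-fold higher (adjusted p = 0.013). In the other fits of all 4 libraries the adjusted p lay between 0.0076 (DESeq2) and 0.040 (replicate block). The call held at 0.05 in these fits, but at a threshold of 0.01 only with DESeq2 and filterByExpr (0.0087). *MtNCED4*, a 9-cis-epoxycarotenoid dioxygenase of ABA synthesis, had 3 and 1 counts in overexpressing calli and 1 and 0 in wildtype calli, and was not tested.

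The ABA response genes of the fixed lists rose in 3 of the 5 cases tested and fell in 1. Over all genes tested, 20.2% rose and 18.9% fell. *MtABI3*, among those that rose, was also used above as a marker of the embryo. *MtABI5*, a bZIP factor of seed ABA response in Arabidopsis, had 87 and 144 counts in overexpressing calli, against 10 and 8 in wildtype calli, and rose 10.0-fold (log2 fold change 3.32, standard error 0.39, adjusted p = 0.0050). *MtABI4* had 126 and 127 counts in overexpressing calli, against 0 and 5 in wildtype calli (log2 fold change 5.25, standard error 0.65, adjusted p = 0.0057). *MtABI3* had 1184 and 1060 counts in overexpressing calli and 0 and 20 in wildtype calli (adjusted p = 0.0051). *MtABI3* and *MtABI4* had their few wildtype counts in replicate 2 alone. Without it their log2 fold changes were 13.05 and 9.90, and without wildtype replicate 1 they were 5.37 and 4.20. Of the 2 protein phosphatase 2C genes, a family whose clade A members repress ABA signalling in Arabidopsis, *MtPP2C-2* fell 2.04-fold (adjusted p = 0.0052) and *MtPP2C-1* did not pass the test (log2 fold change -0.33, adjusted p = 0.19).

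Of the 4 jasmonate genes, 3 were tested and 1 was called, where 39.2% of all genes tested were. *MtOPR3*, the reductase of jasmonic acid synthesis, had 128 and 90 counts in overexpressing calli, against 54 and 39 in wildtype calli, a 1.84-fold higher level (log2 fold change 0.88, standard error 0.24, adjusted p = 0.041). The call was lost with DESeq2 (0.16) and without wildtype replicate 1 (0.067), wildtype replicate 2 (0.12) or overexpressing replicate 1 (0.14). *MtJAZ3*, one of the repressors of jasmonate response, had 80 and 116 counts in overexpressing calli and 86 and 73 in wildtype calli (log2 fold change -0.04, standard error 0.24, adjusted p = 0.90), and its sign turned with library size as the only scaling. *MtJAZ1* had 2 and 9 counts in overexpressing calli and 0 in wildtype calli (adjusted p = 0.088), and its neighbour *MtJAZ2* had 2 and 4 in overexpressing calli and 0 in wildtype calli.

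Earlier enzymes of the jasmonate pathway come from the fixed lists of lipoxygenases and allene oxide synthases, of which 6 were tested. Of these, 3 rose by edgeR and 2 by DESeq2, where 20.2% of all genes tested rose by edgeR. *MtLOX3* had 624 and 736 counts in overexpressing calli, against 168 and 73 in wildtype calli (log2 fold change 2.17, standard error 0.34, adjusted p = 0.0099, and 2.79 on the log2 scale without wildtype replicate 1). *MtLOX4*, its neighbour by ID on chromosome 8, had 140 and 206 counts in overexpressing calli, against 0 and 7 in wildtype calli (log2 fold change 5.23, standard error 0.73, adjusted p = 0.0073). Leaving out wildtype replicate 2 gave a log2 fold change of 10.36, and leaving out wildtype replicate 1 gave 4.18. *MtLOX6*, the most counted lipoxygenase, had 1281 and 1271 counts in overexpressing calli and 1449 and 1049 in wildtype calli (log2 fold change -0.31, adjusted p = 0.16). *MtLOX2* had 0 and 11 counts in overexpressing calli and 0 in wildtype calli (adjusted p = 0.22), and *MtLOX1* and *MtLOX5* had 0 throughout. Not every lipoxygenase leads to jasmonate, and the descriptions do not say which of these do. *MtAOS2* rose 1.77-fold, with 114 and 116 counts in overexpressing calli and 55 and 47 in wildtype calli (adjusted p = 0.015, lost with DESeq2 and, at 0.051 to 0.060, with any library left out), and *MtAOS1* had 44 and 58 in overexpressing calli and 38 and 49 in wildtype calli (adjusted p = 0.75).

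Brassinosteroid genes were not called in either direction by the edgeR fit used here or by DESeq2, though some were in alternative edgeR fits. The single gene chosen by its description, *MtSERK*, a co-receptor of brassinosteroid also named for somatic embryogenesis, had 672 and 584 counts in overexpressing calli and 553 and 506 in wildtype calli. The log2 fold change, -0.10 with a standard error of 0.12 (adjusted p = 0.52), turned sign with library size as the only scaling. Of the 5 genes from the fixed lists, 0 were called, where 39.2% of all genes tested were. By the same edgeR test 3 of the 5 had an unadjusted p under 0.05, as did 12190 of the 24630 genes tested. The receptor gene *MtBRI* had 3752 and 3375 counts in overexpressing calli and 3386 and 2628 in wildtype calli (log2 fold change -0.10, adjusted p = 0.61). *MtBAK1*, its co-receptor, had 723 and 675 in overexpressing calli and 542 and 453 in wildtype calli (log2 fold change 0.14, adjusted p = 0.35), and *MtBZR1*, a transcription factor of the pathway, had 176 and 196 in overexpressing calli and 264 and 178 in wildtype calli (log2 fold change -0.59, adjusted p = 0.059, and 0.032 without wildtype replicate 2). The biosynthetic P450 genes had *MtDWF4A* at 0 and 7 counts in overexpressing calli against 21 and 18 in wildtype calli (adjusted p = 0.082), and *MtDWF4B* at 7 and 0 counts in overexpressing calli against 23 and 28 in wildtype calli (adjusted p = 0.050, not under the threshold). *MtDWF4B* was called in edgeR with DESeq2 size factors or filterByExpr, and *MtBZR1* with filterByExpr. Some fits of 3 libraries called the P450 genes, at 0.019 for *MtDWF4A* without overexpressing replicate 2, and for *MtDWF4B* at 0.022 without overexpressing replicate 1 and 0.044 without overexpressing replicate 2.

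**Figure D5:**
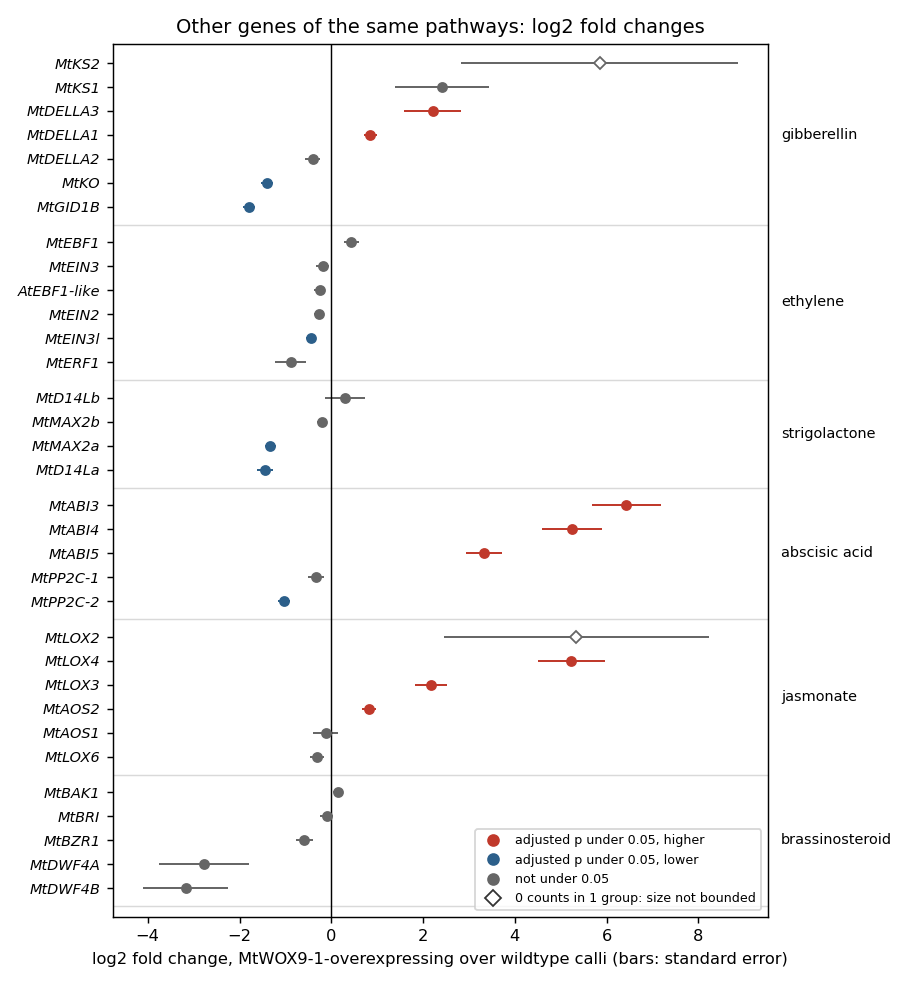
Log2 fold changes of 33 further genes of the same pathways taken from the fixed lists, overexpressing over wildtype calli, with standard errors as bars and 1 row per gene by hormone. *MtABI3*, *MtABI4* and *MtABI5* lie at 6.43, 5.25 and 3.32, *MtGID1B* at -1.80, and the 6 ethylene signalling genes between -0.88 and 0.44.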

How the data were processed

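Raw integer counts of reads for 52709 genes in each of the 4 libraries were deposited by the authors. According to the submitters' processing notes the tools were Trimmomatic, HISAT2, StringTie and DESeq, with no versions. Strand and multiply mapped reads are not given in the sources used here, so near-identical copies may share reads. A table deposited beside it holds a normalized signal per library, equal to the count times 1 constant per library, and the authors' own log2 fold changes and p-values, which were not used. Its symbols and descriptions named the genes. Of the per-sample columns, 0 were left unused. No sequences are shown.

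Counts were tested in R 4.3.3 with edgeR 4.0.16 (at least 10 counts in total, TMM, quasi-likelihood test on condition alone, adjusted p under 0.05). A fit was tested on simulated counts. Standard errors come from the test statistic. Both replicate pairs differed by more than sampling noise (chi-square per degree of freedom 7.78 and 6.86). Alternatives were DESeq2 1.42.0, its size factors, library size alone, filterByExpr, a minimum of 1 count, a replicate block, other thresholds, and each library left out. In fits of 3 libraries the lone sample is assumed to vary like the other group.

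Genes and lists were chosen with earlier results of these data known. The rule named, per hormone, the 3 largest called changes in each direction (mean of at least 20 normalized counts, no overlap) and the 2 most counted genes. All other members are named because every member is accounted for, and their order and emphasis, the family sums, shares and ratios were chosen after their values were seen.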

Additional observations from a re-analysis of the deposited data

How the results depend on the processing

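The number of hormone genes higher in overexpressing calli, 5, was 2 with DESeq2, 3 with a minimum of 1 count, 1 at an adjusted p under 0.01 and 3 with an absolute log2 fold change over 1, and from 2 to 5 with 1 library left out. The number lower, 14, was 6 at an adjusted p under 0.01, and from 7 to 13 with 1 library left out. Over all genes, 4985 higher and 4660 lower became 1907 and 2023 at an adjusted p under 0.01 and 3337 and 3105 with DESeq2, and ran from 2696 to 4465 and from 2935 to 3858 with 1 library left out. With the replicate block the hormone counts were 4 and 11, and the deviations of same-numbered libraries did not go together (r = -0.02 across 24630 genes, which are not independent), so the numbers were not taken as pairs. Library size as the only scaling moved the median log2 fold change of all genes by 0.14, gave 6024 higher and 3928 lower over all genes, and left 5 and 14 hormone genes called. Of 150 values of the 15 genes named by rule, 24 lost their call, 1 gained one and 0 called values changed sign, and the cause was not tested. *MtSERK*, *MtETR4*, *MtJAZ3* and *MtMAX1b* were among these 15 but were not called in the edgeR fit used here. Their values had no call to lose, so all 24 lost calls belong to the other genes named by rule. At these depths, genes with under 10 counts in total could not be compared.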
